A study of Rattus norvegicus with 252 samples.

Results

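Astrocyte and microglia reactivity was represented by 5 genes, of 32883 in the deposited table, which were followed through 4 brain regions of rats that model Huntington's disease: Gfap (ENSRNOG00000002919), Aif1 (ENSRNOG00000000853), Cd68 (ENSRNOG00000037563), C1qa (ENSRNOG00000012807) and C1qb (ENSRNOG00000012804). They were chosen by identifier, with the condition that a gene reach a level of 1 CPM (counts scaled to library size) in at least 1 region, and all 5 met it. Long Evans rats without the Q130 knock-in (WT) and rats heterozygous for it (Q130) were sampled at 2, 6 or 12 months of age. Striatum, cortex, hippocampus and cerebellum were taken from 60 animals, which gave 240 libraries in 24 groups of 10, each with 5 females and 5 males. The groups used here are therefore WT and Q130 heterozygous rats of each age in each region, with no drug or other allele named in the labels. The 2- and 6-month libraries formed batch 1, and the 12-month libraries formed batch 2 together with 12 further libraries that repeated striatal samples of young males.

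Astrocytes answer injury and disease by making more of the intermediate filament protein GFAP, which is why Gfap is the usual readout of astrocyte reactivity. Microglia, the resident phagocytes of the brain, express Aif1, which encodes the actin-binding protein IBA1, and Cd68, which encodes a membrane protein of lysosomes and late endosomes that is abundant in phagocytosing cells. C1qa and C1qb encode the A and B chains of C1q, the recognition molecule that starts the classical complement pathway and that in brain is made mostly by microglia. The deposited tables give Ensembl identifiers without names, so the 5 symbols are those under which the identifiers were listed, and the regions and cell types could not be checked against other marker genes.

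The promoters of 4 of the 5 genes are shown, since the promoter set used held none for Aif1. C1qa and C1qb moved together between libraries, while the tie of Cd68 to the other genes rested on a few libraries, as given below. Whether the motifs bear on these levels was not tested. Each window holds the 250 bases before the annotated start, from RefSeq on the rat build GRCr8. Capitals mark the core of an ETS-family motif, the letters GGAAGT or its reverse complement ACTTCC. ETS-family factors include PU.1, which is needed for microglial development. All 4 genes lie on the minus strand, and each sequence is written 5′ to 3′ on that strand.
Gfap, chr10:88361662-88361911: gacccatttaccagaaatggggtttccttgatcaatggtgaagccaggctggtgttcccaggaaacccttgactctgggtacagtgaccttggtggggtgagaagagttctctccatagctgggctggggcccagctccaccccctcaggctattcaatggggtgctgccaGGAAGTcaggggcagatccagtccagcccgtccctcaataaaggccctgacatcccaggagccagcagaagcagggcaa
Cd68, chr10:54882442-54882691: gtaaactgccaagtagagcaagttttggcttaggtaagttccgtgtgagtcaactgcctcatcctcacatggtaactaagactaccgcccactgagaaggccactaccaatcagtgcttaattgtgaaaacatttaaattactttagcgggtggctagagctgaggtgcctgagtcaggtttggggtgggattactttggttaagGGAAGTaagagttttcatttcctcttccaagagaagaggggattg
C1qa, chr5:154419934-154420183: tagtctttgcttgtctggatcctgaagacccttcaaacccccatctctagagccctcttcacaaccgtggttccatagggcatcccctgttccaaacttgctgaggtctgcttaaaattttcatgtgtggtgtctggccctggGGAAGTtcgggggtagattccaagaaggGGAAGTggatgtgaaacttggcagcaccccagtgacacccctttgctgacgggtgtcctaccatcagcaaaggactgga
C1qb, chr5:154407828-154408077: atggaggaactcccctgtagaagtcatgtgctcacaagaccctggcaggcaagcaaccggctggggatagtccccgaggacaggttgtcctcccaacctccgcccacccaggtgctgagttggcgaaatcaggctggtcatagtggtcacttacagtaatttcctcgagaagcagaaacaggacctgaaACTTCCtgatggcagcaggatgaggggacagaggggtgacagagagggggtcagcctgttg
The annotated starts of C1qa and C1qb lie 12106 bases apart on the same chromosome and strand. GGAAGT on either strand occurred in all 4 windows, once each in Gfap, Cd68 and C1qb and 2 times in C1qa. Among 33469 rat promoters of the same length, 19.2% held at least 1 match and 2.8% held 2 or more. Cd68 also held 2 matches to the AP-1 letters TGAGTCA (4.05% of all promoters held any), and C1qa held 1 match to the GAS element letters TTCNNNGAA (7.67% of all promoters). These motifs were chosen after the sequences were seen, do not overlap one another in these letters, and are descriptions of the windows only.

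The libraries held 25254998 to 50828262 counts, with a median of 34343272, and no member was at 0 in any of the 240. A set of 9 libraries from 7 animals had a median correlation with the libraries of their own region under 0.97, while all others were at 0.9732 or above. They were striatum of 1 female and 1 male and cortex of the same male among 12-month Q130 rats, 1 cortex of a 6-month WT male, 3 libraries of hippocampus or striatum from 6-month Q130 males, and cerebellum of 2 Q130 males at 2 months. The 6-month striatal and hippocampal libraries of 1 Q130 male each correlated more closely with the other region, as did the 12-month striatal library of the female with hippocampus. Results that these libraries change are given with and without them. In bulk tissue, a change in the number of cells of a type and a change in RNA per cell cannot be told apart.

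Gfap was the most abundant of the 5 transcripts in every region, and Cd68 the least. Levels between genes are compared in the deposited TPM values, which are scaled for transcript length, over the 30 WT libraries of each region. Gfap had a mean of 604 ± 59.1 TPM (SD, n = 30) in hippocampus, 569 ± 52.1 in cerebellum, 529 ± 78.5 in striatum and 323 ± 54.9 in cortex. Its ranges overlapped in hippocampus (485 to 715 TPM), cerebellum (486 to 707) and striatum (411 to 745), and cortex was the low region (242 to 507). The microglial genes had another order, with striatum first.

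C1qa was the highest of the microglial genes, with 140 ± 17.5 TPM (SD, n = 30) in striatum, 101 ± 18.3 in cortex, 93 ± 13.9 in hippocampus and 61.0 ± 8.43 in cerebellum. Aif1 followed with 58.8 ± 6.31, 48.0 ± 9.58, 40.6 ± 5.02 and 25 ± 3.79 TPM in the same regions. C1qb had 46.4 ± 5.26, 38.1 ± 6.56, 31.9 ± 4.45 and 26.3 ± 3.83 TPM. Without the 1 WT cortical library that stood apart, the cortical means were 99 ± 16.0 TPM for C1qa and 46.6 ± 5.57 for Aif1 (n = 29). These 3 genes thus shared the order striatum, cortex, hippocampus, cerebellum by their means, while the ranges of neighbouring regions in that order overlapped for each of them. Cd68 was at 2.80 ± 0.76 TPM in striatum, 2.26 ± 0.64 in cortex, 2.03 ± 0.50 in cerebellum and 1.53 ± 0.42 in hippocampus. Its depth was low, with a median of 34 counts per library in hippocampus against 26289.5 for Gfap, so its values carry more counting error than those of the other genes.

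**Figure D1:**
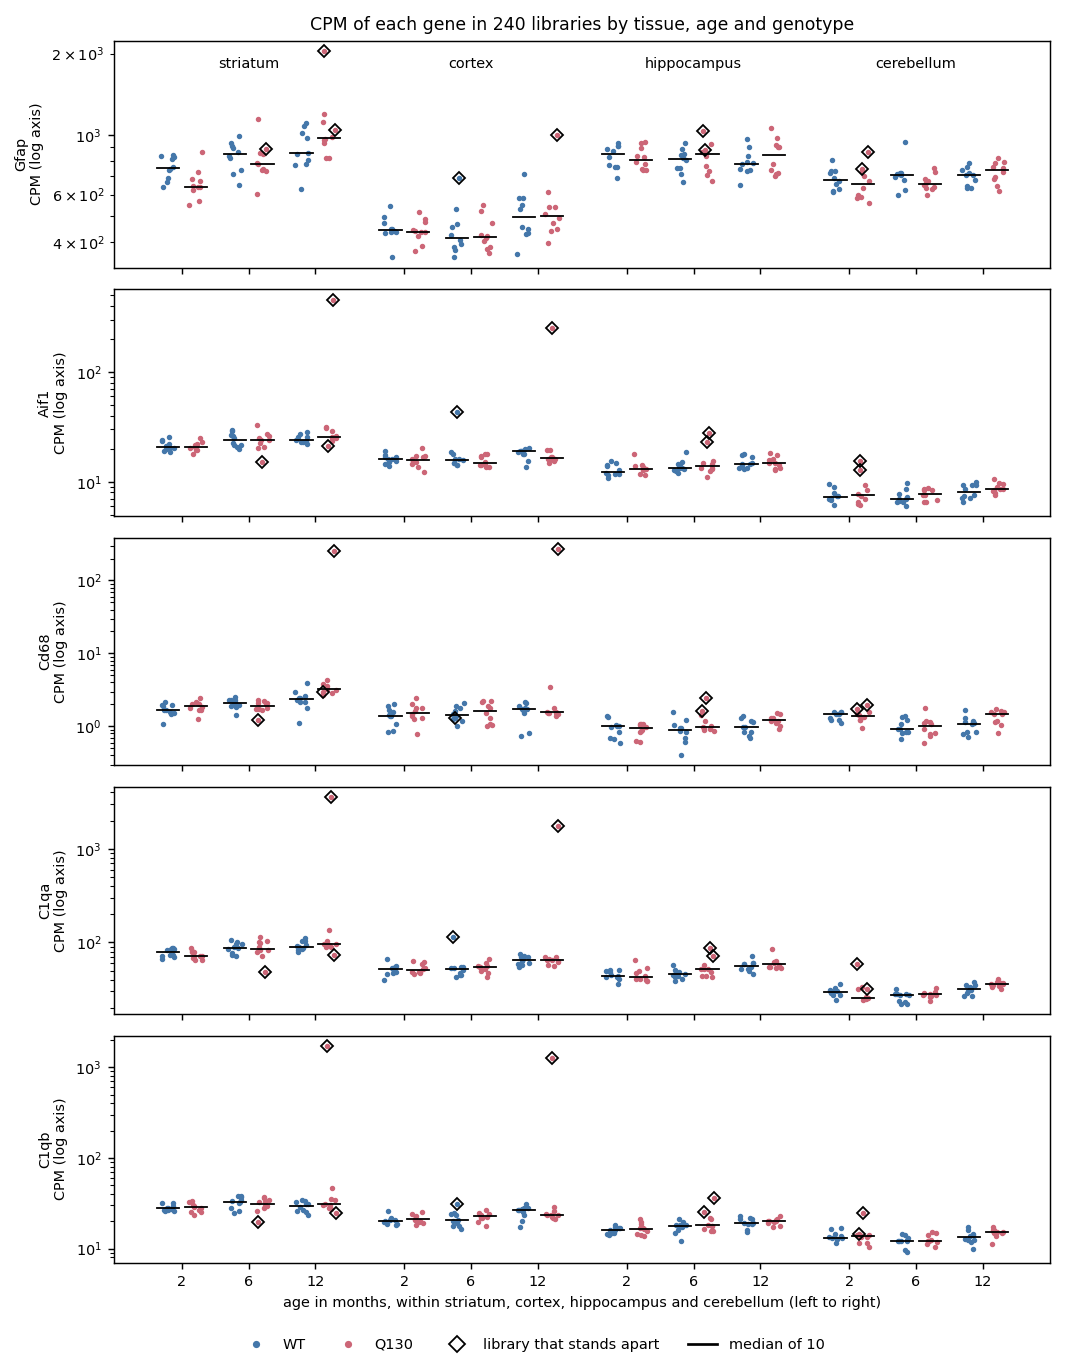
CPM of each gene on a log axis (1 panel per gene) against age in months, within striatum, cortex, hippocampus and cerebellum from left to right, with 1 point per library, lines at the median of 10 and diamonds on libraries that stand apart. Gfap was lowest in cortex, C1qa, Aif1 and C1qb were lowest in cerebellum, and the highest points of the microglial genes are the striatal and cortical libraries of 1 Q130 male at 12 months.

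The differences between regions were tested within WT animals, each of which gave all 4 regions, with edgeR's quasi-likelihood test and the animal as a block. Of the 90 tests (6 pairs of regions at 3 ages for 5 genes), 84 passed an adjusted p of 0.05, where 74.9% of all gene tests did. At 2 months the level in cerebellum was below that in striatum by a log2 difference of -1.52 ± 0.05 (SE) for Aif1 (adjusted p = 9.31e-27), -1.39 ± 0.03 for C1qa (adjusted p = 3.73e-31) and -1.04 ± 0.05 for C1qb (adjusted p = 2.00e-22). Gfap differed by only -0.13 ± 0.04 in the same comparison (adjusted p = 0.00071). These tests use counts, and for Gfap the sign of this difference depended on the unit. Its WT mean at 2 months was 688 CPM in cerebellum and 755 CPM in striatum, but 552 and 487 TPM. The large step of Gfap was the one into cortex, where it fell by 0.75 ± 0.04 on the log2 scale relative to striatum at 2 months (adjusted p = 2.60e-21).

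In the tests on counts, the sign of the Gfap difference between hippocampus and striatum was not the same at all ages in WT rats. Hippocampus was above striatum at 2 months (log2 difference 0.14 ± 0.04, adjusted p = 0.000343), was at -0.07 ± 0.06 at 6 months (adjusted p = 0.332) and was below it at 12 months (-0.15 ± 0.06, adjusted p = 0.0333, edgeR's quasi-likelihood test). Whether these 3 differences differ from each other was not tested, and the 12-month libraries are all of batch 2. In TPM the WT mean of hippocampus was above that of striatum at each age. The means were 629 and 487 TPM at 2 months, 595 and 514 at 6 months, and 589 and 585 at 12 months. The other 5 tests that missed the threshold were all of Cd68: cortex and cerebellum against striatum and against each other at 2 months, and cerebellum against hippocampus at 6 and 12 months.

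The highest values of all 4 microglial genes came from 1 Q130 male at 12 months, and they were confined to 2 of its 4 regions. In its striatum, Cd68 was at 255 CPM, against a median of 2.71 CPM (range 1.11 to 4.27) in the 18 other 12-month striatal libraries that did not stand apart, a ratio of 94.1. C1qb was at 1715 CPM against 30.7 (55.9-fold), C1qa at 3543 against 93.1 (38.0-fold) and Aif1 at 457 against 25.3 (18-fold). Gfap was at 2043 CPM against 943, a ratio of 2.17. Each of the 5 values was above the highest of the others, with a far smaller ratio for the astrocyte gene than for the microglial ones.

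The cortex of the same rat gave the same order of ratios. Cd68 was at 274 CPM against a median of 1.60 (range 0.74 to 3.45, n = 19), a ratio of 172. The ratio was 53.0 for C1qb (1279 against 24.1 CPM), 26.7 for C1qa (1735 against 64.9 CPM), 14.0 for Aif1 (250 against 17.8 CPM) and 2.04 for Gfap (1002 against 492 CPM). Ranked by their ratio among all genes of at least 1 CPM, Cd68 stood at place 83 of 14738 in striatum and 52 of 14635 in cortex, and Gfap at 2473 and 2170. The change was not limited to these genes, since 1435 genes in striatum and 1207 in cortex were at least 4-fold above the other libraries' median, and 190 and 30 at least 4-fold below.

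Its hippocampus and cerebellum did not show this. Aif1 was at 14.9 CPM in hippocampus and 7.92 in cerebellum, Cd68 at 1.30 and 1.46, C1qa at 54.5 and 36.1, and C1qb at 17.3 and 13.9, all within the range of the 19 other libraries. Gfap was at 976 CPM in hippocampus and 793 in cerebellum, 1.25-fold and 1.11-fold the median and also within range. In those regions 18 and 12 genes were at least 4-fold above the others. These are values of 1 animal without replication. Markers of other cell types could not be set beside them, and their part in these values was not tested.

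**Figure D2:**
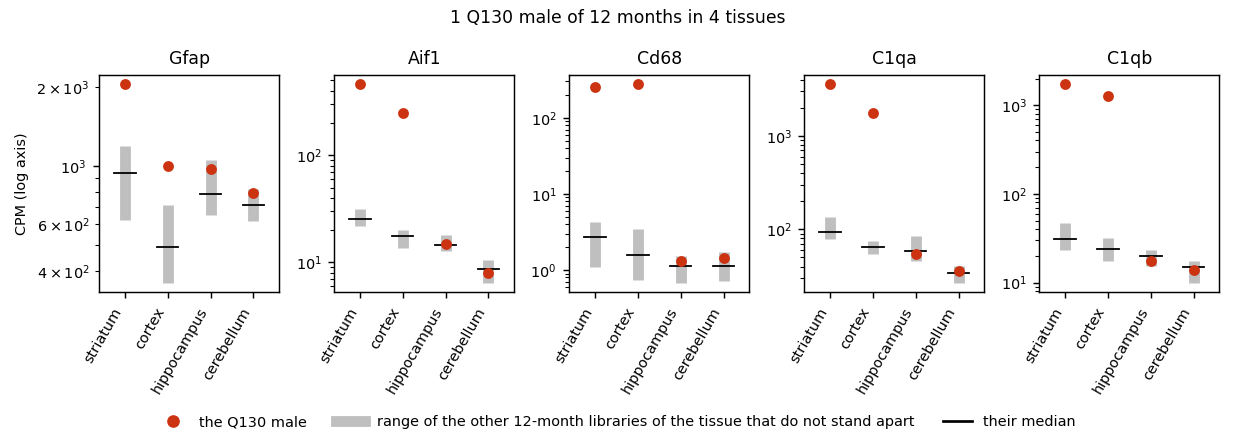
CPM of each gene on a log axis (1 panel per gene) in the 4 regions of the 12-month Q130 male (red points), with the range (grey bars) and median (lines) of the other 12-month libraries of the region that do not stand apart. The red points lie above the bars for all 5 genes in striatum and cortex and within them in hippocampus and cerebellum.

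Smaller shifts, upward and downward, appeared in other libraries that stood apart. In the cortex of a 6-month WT male, Aif1 was at 43.2 CPM (2.84-fold the median of the other 6-month cortical libraries), C1qa at 115 (2.14-fold), Gfap at 693 (1.68-fold) and C1qb at 31.0 (1.41-fold), while Cd68 was at 1.32 (0.87-fold). In that library 1069 genes were at least 4-fold below the others and 39 above. Among the 2-month cerebella of Q130 males, Aif1 was at 12.8 and 15.4 CPM against a median of 7.23, and C1qa at 31.9 and 58.4 against 28.2. Another 6-month Q130 male, whose libraries resembled the other region, had C1qa at 48.4 CPM in the library labelled striatum, against a median of 88.7. It was at 87.1 CPM in the one labelled hippocampus, against 47.3. In the library labelled striatum Aif1, Cd68 and C1qb were at 0.62-, 0.60- and 0.60-fold the median, and Gfap at 1.07-fold. In the striatum of the 12-month Q130 female, C1qa and C1qb were at 0.80-fold, Aif1 at 0.84-fold, and Cd68 and Gfap at 1.10-fold.

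C1qa and C1qb, whose products join in 1 protein complex, varied together across libraries. After the mean of each region, age, genotype and sex was removed, their log2 CPM values correlated at r = 0.96 over the 240 libraries and at 0.66 over the 231 that did not stand apart. C1qb was the third most like C1qa among 14244 genes in both sets. The gene most like C1qa was ENSRNOG00000012749 in both sets (r = 0.97 and 0.77), and the gene most like Aif1 was ENSRNOG00000012062 in both (0.95 and 0.68). Gfap and Cd68 were most like ENSRNOG00000019629 (r = 0.72) and ENSRNOG00000051235 (r = 0.88) over all libraries. Without those that stood apart, 0 of the 3 genes most like each of them remained, and ENSRNOG00000000842 (0.61) and ENSRNOG00000015518 (0.44) came first. The libraries share animals and batches, and the values are descriptions.

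The tie of Cd68 to the other 4 genes depended on the libraries that stood apart. Its correlations were 0.47 to 0.84 over all libraries and 0.05 to 0.13 without those 9. Its median count per library was 34 in hippocampus to 68.5 in striatum, and the part of counting error in the low correlations was not tested. Gfap correlated with C1qa at 0.65 and with Aif1 at 0.65 over all libraries, and at 0.49 and 0.43 without them. The count ratio of C1qa to C1qb was 2.87 ± 0.30 (SD, n = 57) in striatum, 2.52 ± 0.26 in cortex, 2.83 ± 0.31 in hippocampus and 2.25 ± 0.25 in cerebellum without the libraries that stood apart. In the 12-month Q130 male it was 2.07 in striatum and 1.36 in cortex, below the lowest value of the other libraries of each region. The cortex of the 6-month WT male had 3.71, above the highest. The ratio compares counts, not molecules, since the transcripts differ in length.

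**Figure D3:**
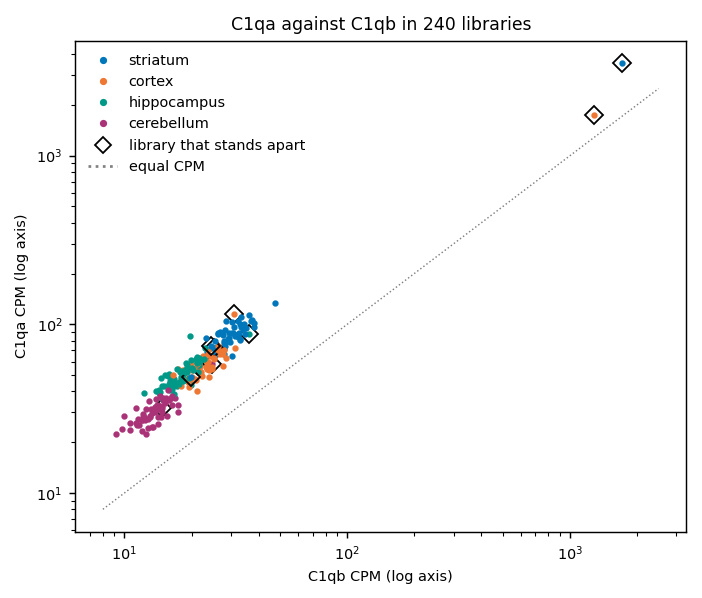
CPM of C1qa against CPM of C1qb on log axes, with 1 point per library coloured by region, diamonds on libraries that stand apart and a dotted line where both are equal. The points form 1 band over all regions, and the striatal and cortical libraries of the 12-month Q130 male lie at its far end, nearer the dotted line than the rest of their regions.

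The main question of the design, whether the Q130 allele changes these genes, was asked in each region and age with sex as a covariate. None of the 60 tests (5 genes in 12 comparisons) passed an adjusted p of 0.05 in edgeR's quasi-likelihood test. Over the same 12 comparisons, 0.366% of all gene tests were called. An unadjusted p under 0.05 was reached by 11 of 60, or by 6 without the libraries that stood apart (0 called). Per comparison with all libraries, 244 of 15349 (cerebellum at 2 months) to 3036 of 15500 (striatum at 2 months) of all genes reached it. limma-voom called 1 of 60 (5 at an unadjusted p under 0.05, 1.12% of all gene tests called) and DESeq2 called 1 (6 unadjusted, 1.09% of all gene tests called), in both cases Gfap in striatum at 2 months. DESeq2 gave no adjusted p for 11 of the 60. The first part of the animal identifiers occurred in both genotypes for 5 of 6 parts at 2 months, 1 of 12 at 6 months and 0 of 12 at 12 months, so at 12 months genotype and whatever that part stands for cannot be told apart.

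Gfap in striatum at 2 months was the closest to a call. Its level was 640 to 839 CPM with a median of 753 in WT and 549 to 862 CPM with a median of 643 in Q130 rats. The Q130 values were lower as a group, but the highest of all 20 was a Q130 library, and the ranges overlapped. The log2 difference, Q130 minus WT, was -0.19 ± 0.06 (SE, n = 10 and 10), with an adjusted p of 0.0669 in edgeR's quasi-likelihood test, where 2.54% of all genes were called. The adjusted p was 0.0178 with limma-voom, 0.0169 with DESeq2, 0.174 with the first part of the identifier as a block (log2 difference -0.16) and 0.871 in a fit over all 60 striatal libraries, and an exact two-sided permutation test within sex gave p = 0.0062 before adjustment. Leaving out 1 library brought it under 0.05 in 3 of 20 cases (Q130 female 3, Q130 male 5 or WT female 1). With the first and repeat columns of the 12 repeated samples exchanged, the difference was -0.09 (adjusted p = 0.689), so the estimate depends on which of the paired columns is the batch 1 library.

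At 12 months the fitted differences of the microglial genes in striatum were large and imprecise. Cd68 was at 1.11 to 3.98 CPM (median 2.36) in WT and at 2.67 to 255 CPM (median 3.22) in Q130 striatum. Without the 2 Q130 libraries that stood apart, the highest of the remaining 8 was 4.27 CPM, and the lowest lay above the WT median. The log2 difference fell from 2.60 ± 0.96 (adjusted p = 0.496) to 0.47 ± 0.16 (adjusted p = 0.271, edgeR's quasi-likelihood test). Those of C1qb, C1qa, Aif1 and Gfap fell from 1.96, 1.61, 1.19 and 0.31 to 0.18, 0.11, 0.15 and 0.15. The same pattern held in cortex, where Cd68 went from 2.78 ± 1.26 to 0.13, C1qb from 1.70 to -0.08, C1qa from 1.31 to -0.01 and Aif1 from 0.86 to -0.10 without the cortex of the 12-month male. A single fit over all 60 libraries of a region, which takes the spread from all ages, called 7 of 60 (0.787% of all gene tests), all of them microglial genes of striatum or cortex at 12 months. Without the libraries that stood apart, the same fit called 0 of 60 (8 at an unadjusted p under 0.05, 0.291% of all gene tests called).

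Cerebellum at 12 months had no library that stood apart. C1qa was at 27.0 to 37.7 CPM (median 32.0) in WT and 31.7 to 40.7 CPM (median 36.3) in Q130 rats. The Q130 values lay higher as a group, and the ranges overlapped from 31.7 to 37.7 CPM. The log2 difference was 0.18 ± 0.06 (SE) with an adjusted p of 0.111 (edgeR's quasi-likelihood test, 1.57% of all genes called), and the exact two-sided permutation p was 0.0115 before adjustment. All 5 genes were above 0 there, with a median of 0.16 against -0.00 over all genes tested, of which 49.5% were above 0. All 5 were also above 0 in hippocampus at 12 months (median 0.08), which had no library that stood apart either. With all libraries the same sign was seen for all 5 in hippocampus at 6 months and in striatum and cortex at 12 months.

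Summed over the 4 regions of an animal, no gene was called for genotype (0 of 5 in edgeR's quasi-likelihood test, against 0.0172% of all genes called). An unadjusted p under 0.05 was reached by 3 of 5, or 1 of 5 without the animals that gave a library that stood apart. Of all genes tested, 1245 of 17416 reached it, or 1100 of 17446 without those animals. Without the 7 animals that gave a library that stood apart, 53 remained, and the 95% interval of the log2 difference was -0.06 to 0.06 for Gfap, -0.05 to 0.07 for Aif1, -0.05 to 0.10 for C1qa and -0.04 to 0.11 for C1qb. For Cd68 the difference was 0.13 ± 0.05 (SE), with an interval of 0.02 to 0.23 and an adjusted p of 0.718. Cd68 estimates were above 0 in 9 of the 12 region and age comparisons with all libraries and in 8 of 12 without those that stood apart. These comparisons share animals between regions and are not independent. The genotype difference of Cd68 in striatum varied with age (interaction adjusted p = 0.0368, where 0.0749% of all gene tests were called), which became 0.143 without the libraries that stood apart. No other gene or region passed that test, and the genotype by region interaction was called in 0 of 15 tests (0.0686% of all gene tests called). An unadjusted p under 0.05 was reached in 1 of 15, and by 945 of 17040 (2 months) to 1723 of 16941 (12 months) of all genes.

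**Figure D4:**
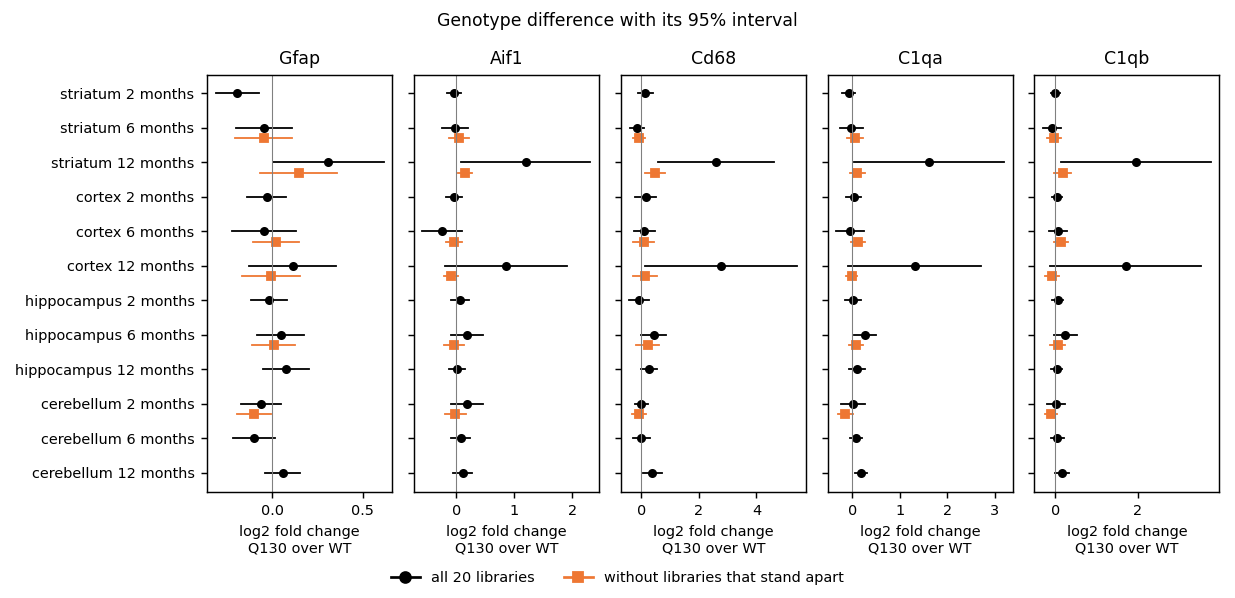
Log2 fold change of Q130 over WT for each gene (1 panel per gene, with its own scale) in the 12 region and age comparisons, with 95% intervals, for all 20 libraries (black) and, where a library stands apart, without it (orange). The estimates over 1 at 12 months in striatum and cortex fall to 0.47 or less without those libraries, and the interval of Gfap in striatum at 2 months lies below 0.

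Males had more Gfap than females. Over whole animals, with counts of the 4 regions summed, Gfap was at 565 to 829 CPM (median 647) in 30 females and 608 to 1165 CPM (median 739) in 30 males. The ranges overlapped, and 29 of the 30 males lay above the female median. Mean values in females were 617, 637 and 701 CPM at 2, 6 and 12 months, and in males 704, 747 and 825 CPM. The log2 difference, male minus female, was 0.22 ± 0.03 (SE, adjusted p = 7.37e-06, edgeR's quasi-likelihood test), and 0.19 ± 0.03 without the 7 animals (adjusted p = 8.52e-06).

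In single regions the difference had the same sign throughout. Gfap was higher in males in 12 of 12 region and age comparisons, by 0.11 to 0.46 on the log2 scale with all libraries and by 0.09 to 0.34 without those that stood apart. None of the 60 tests by region and age passed an adjusted p of 0.05 (edgeR's quasi-likelihood test, 0.179% of all gene tests called). An unadjusted p under 0.05 was reached by 23 of 60, or 17 without the libraries that stood apart. Of all genes, 699 of 15466 (hippocampus at 2 months) to 1920 of 15500 (striatum at 2 months) reached it in a comparison with all libraries. Aif1 was also higher in males in 12 of 12 comparisons, and Cd68 in 11 of 12, or 12 of 12 without the libraries that stood apart. Regions of the same age came from the same animals, so these comparisons are not independent.

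Over whole animals 2 of 5 genes were called for sex with all 60 animals, against 13.1% of all genes, and 3 of 5 without the 7 animals, against 8.05%. Cd68 was at 1.01 to 2.13 CPM (median 1.40) in females and 1.30 to 121 CPM (median 1.55) in males. Its log2 difference was 1.01 ± 0.35 (SE, adjusted p = 0.0491, edgeR's quasi-likelihood test) with all animals and 0.17 ± 0.05 (adjusted p = 0.0341) without the 7. The call with all animals was lost without a filter on low counts (adjusted p = 0.0667). Aif1 was at 12.8 to 17.4 CPM (median 15.0) in females and 12.6 to 165 CPM (median 16.1) in males, with a difference of 0.43 ± 0.15 (adjusted p = 0.0506) and 0.11 ± 0.03 (adjusted p = 0.0224) without the 7. Both of these genes overlapped broadly between the sexes. For C1qa and C1qb the difference without the 7 animals was 0.00 (95% interval -0.08 to 0.08) and 0.03 (-0.05 to 0.10).

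The whole-animal comparison of the sexes was added after values were seen. The first part of an animal's identifier was never shared by a male and a female at any age (0 of 6 at 2 months, 0 of 12 at 6 months and 0 of 12 at 12 months), so sex and whatever that part stands for cannot be told apart. Of the 7 animals with a library that stood apart, 6 were males.

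**Figure D5:**
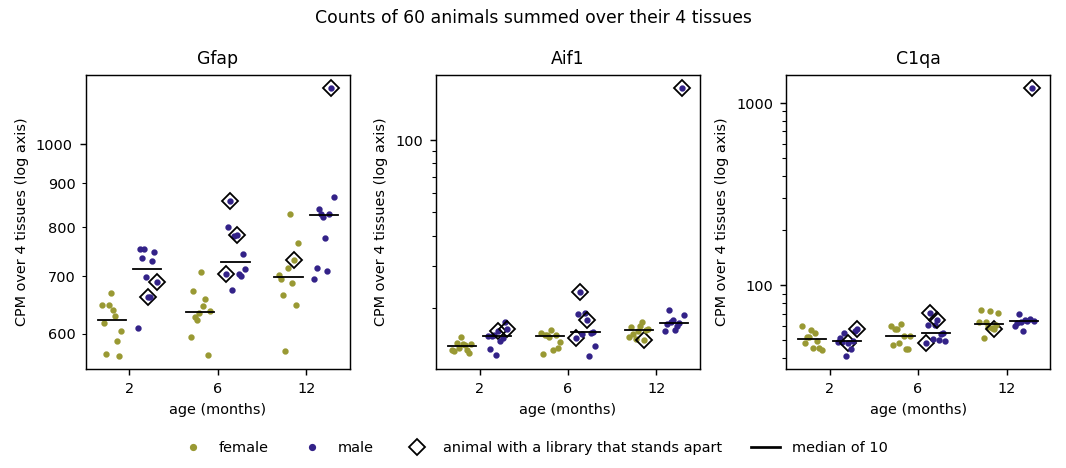
CPM of Gfap, Aif1 and C1qa per animal on a log axis, counts of the 4 regions summed, for females and males against age in months, with lines at the median of 10 and diamonds on animals with a library that stands apart. The Gfap medians of males (715, 729 and 825 CPM at 2, 6 and 12 months) lie above those of females (623, 636 and 699), and the points of C1qa overlap.

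Between 2 and 6 months, which lie in the same batch, Gfap and Cd68 were the genes with a call. In edgeR's quasi-likelihood test 3 of 40 tests (5 genes in 4 regions and 2 genotypes) were called, against 10.2% of all gene tests. limma-voom called 7, against 16.8% of all gene tests, and DESeq2 called 6, against 12.7%. Of the 3 calls, 2 were Gfap in striatum and 1 was Cd68 in cerebellum.

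Gfap in Q130 striatum was at 549 to 862 CPM (median 643) at 2 months and 602 to 1147 CPM (median 782) at 6 months. The log2 difference was 0.30 ± 0.08 (SE, adjusted p = 0.0268, 7.66% of all genes called), and the call was lost without 2-month male 1 (adjusted p = 0.0515) or male 3 (0.0545). In WT striatum it was at 640 to 839 CPM (median 753) and then 652 to 992 CPM (median 847), a difference of 0.15 ± 0.05 (adjusted p = 0.0426, 17.1% of all genes called). In both genotypes the ages overlapped. The WT call was lost in 12 of 20 cases with 1 library left out: females 1, 2 and 4 and males 1 to 4 at 2 months, and females 3 and 5 and males 3 to 5 at 6 months, with adjusted p up to 0.0939. With the first and repeat columns exchanged, both striatal calls were lost (log2 difference 0.13 in WT, adjusted p = 0.186, and 0.24 in Q130, adjusted p = 0.244).

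Cd68 in WT cerebellum was at 1.12 to 1.56 CPM (median 1.46) at 2 months and 0.674 to 1.38 CPM (median 0.926) at 6 months. The values fell, with some overlap, by 0.48 ± 0.13 on the log2 scale (adjusted p = 0.0135, edgeR's quasi-likelihood test, 19.8% of all genes called), and the call was kept in all 20 cases with 1 library left out. In Q130 cerebellum the difference was -0.49 ± 0.15 (adjusted p = 0.055). Without the libraries that stood apart 5 of 40 tests were called, against 14% of all gene tests, and the added ones were in Q130 striatum: Aif1 at 0.26 ± 0.07 (adjusted p = 0.0185) and C1qa at 0.31 ± 0.08 (adjusted p = 0.00702).

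C1qa was higher at 12 than at 6 months in every region and genotype, though the difference was called in only some of them. Age and batch change together in this comparison and cannot be told apart. In edgeR's quasi-likelihood test 4 of 40 tests were called, against 10.4% of all gene tests, and 9 of 40 without the libraries that stood apart, against 13.6%. C1qa had a positive difference in 8 of 8 comparisons and was called in 3, or in 6 without those libraries. The direction was not particular to C1qa. Cd68 was also above 0 in 8 of 8 (0 called, or 1 without those libraries). Aif1 was above 0 in 6 of 8, or 8 of 8 without them (0 called in both). The regions share animals, so the 8 comparisons are not independent.

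In Q130 cerebellum C1qa was at 23.8 to 33.0 CPM (median 27.9) at 6 months and 31.7 to 40.7 CPM (median 36.3) at 12 months, so only the edges overlapped. The log2 difference was 0.37 ± 0.05 (SE, adjusted p = 2.22e-05, 14.7% of all genes called). In WT cerebellum it was at 22.3 to 31.6 CPM and then 27.0 to 37.7 CPM, a difference of 0.27 ± 0.07 (adjusted p = 0.0153). In WT hippocampus it went from 39.2 to 57.0 CPM (median 45.8) to 46.3 to 72.5 CPM (median 56.8), a difference of 0.30 ± 0.07 (adjusted p = 0.00915). C1qb followed C1qa only in Q130 cerebellum among the calls with all libraries (0.26 ± 0.07, adjusted p = 0.0146).

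Cd68 in Q130 striatum was called only without the libraries that stood apart. With all 20 libraries the log2 difference was 2.93 ± 0.997 (SE, adjusted p = 0.111, edgeR's quasi-likelihood test). Without them, the 9 libraries at 6 months were at 1.69 to 2.29 CPM and the 8 at 12 months at 2.67 to 4.27 CPM, with no overlap, and the log2 difference was 0.76 ± 0.11 (SE, adjusted p = 0.000385, edgeR's quasi-likelihood test). In WT striatum it was 0.19 ± 0.14, with ranges of 1.425 to 2.563 CPM and 1.11 to 3.98 CPM that overlapped. Whether the age difference differed between genotypes is the interaction given above, with an adjusted p of 0.143 without those libraries.

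The 12 striatal samples of young males sequenced in both batches measured the shift between batches at a fixed age. None of the 5 genes was called between repeat and first library (0 of 5, edgeR's quasi-likelihood test, 4.1% of all genes called). An unadjusted p under 0.05 was reached by 2 of 5, and by 2557 of all 15425 genes tested. The log2 shift, repeat minus first, was 0.01 for Gfap, 0.02 for C1qa and -0.05 for C1qb. Aif1 was higher in the repeat of 10 of 12 samples (0.17 ± 0.07) and Cd68 in 1 of 12 (-0.26 ± 0.11). Which of the paired columns is the repeat was inferred from the column names, and each of these signs would turn if they were exchanged.

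Within batch 2, striatum of 12-month males was set against the 6 repeat libraries of each younger age. With all libraries 0 of 10 tests were called (edgeR's quasi-likelihood test, against 5% of all gene tests). An unadjusted p under 0.05 was reached by 1 of 10. Of all genes, 3446 of 15589 reached it between 6 and 12 months and 3229 of 15602 between 2 and 12 months. Without the 12-month male that stood apart 2 of 10 were called, against 26.6% of all gene tests, both between 2 and 12 months: Cd68 at 0.84 ± 0.18 (adjusted p = 0.00292) and Gfap at 0.28 ± 0.10 (adjusted p = 0.0415). Between 6 and 12 months Cd68 was at 0.54 ± 0.21 (adjusted p = 0.0619) and C1qa at 0.13 ± 0.07 (adjusted p = 0.18).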

How the data were processed

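RNA from 4 brain regions of 60 rats was sequenced. The authors deposited estimated counts per gene, which need not be whole, made by steps that the file headers do not name. They also deposited a table whose values have the same sum in every library and were read as TPM, although its name gives another unit. The sources used here name no aligner, counter or annotation. Estimated counts were rounded and tested with edgeR 4.0.16 in R 4.3.3 (TMM factors, filterByExpr, robust quasi-likelihood F test, Benjamini-Hochberg over all genes of a comparison, threshold 0.05); limma 3.58.1 (voom with quality weights) and DESeq2 1.42.0 were alternatives. CPM values use TMM library sizes, with a prior count of 2 for log2 values. The test was checked on counts simulated from the genotype comparison of striatum at 2 months, with changes larger than the Gfap difference there. The simulation held no library that stood apart, so it does not cover results that such libraries change.

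The members and lists were chosen with earlier results of these data known. Named genes were the members and, for likeness, the 3 genes of at least 1 CPM with the highest correlation to each. The fixed marker lists matched no identifier and gave no result. Of 2 striatal columns of a repeated sample, the one written with a dot was taken as the repeat library, an inference from the column names and the batch labels. Libraries were called apart under a median correlation of 0.97. Exchanging the repeat columns, leaving out libraries in the 2- to 6-month comparisons, leaving out the male that stood apart within batch 2, the whole-animal test of sex, the identifier block and the 60-library fit without libraries that stood apart were added after the data were seen. Animals, not sequencing runs, are the replicates.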

Additional observations from a re-analysis of the deposited data

Results flagged for a closer look

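Of 120 groups of 10 libraries (5 genes in 24 groups), 24 had 1 library at a distance from the rest above Dixon's 95% critical value for 10 samples. About 1 in 20 groups would exceed it for independent, normally distributed values. The values here are unlogged CPM of genes that share libraries, so the count cannot be read as an excess over chance. In all 24 the distant library was the highest, and 17 were libraries that stood apart in their whole profile. The striatum of the 12-month Q130 male gave 2043 CPM for Gfap, 457 for Aif1, 255 for Cd68, 3543 for C1qa and 1715 for C1qb, and its cortex gave 1002, 250, 274, 1735 and 1279 CPM. The cortex of the 6-month WT male gave 693 CPM for Gfap, 43.2 for Aif1 and 115 for C1qa. The other libraries that stood apart were a 2-month Q130 cerebellum (58.4 CPM for C1qa and 24.7 for C1qb) and the library labelled hippocampus of a 6-month Q130 male (2.41 CPM for Cd68 and 36.2 for C1qb), whose profile was closer to striatum.

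The other 7 were in libraries that did not stand apart. Gfap was at 941 CPM in a 6-month WT cerebellum, next value 722, from the male whose cortex stood apart, and at 1147 CPM in a 6-month Q130 striatum, next value 884. Aif1 was at 18 CPM in a 2-month Q130 hippocampus and at 18.7 CPM in a 6-month WT hippocampus. Cd68 was at 1.81 CPM in a 6-month Q130 cerebellum, C1qa at 85.4 CPM in a 12-month Q130 hippocampus of a female, and C1qb at 26.1 CPM in a 2-month WT cortex.

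The genotype difference of Cd68 in striatum differed between ages by the interaction term of edgeR's quasi-likelihood test (adjusted p = 0.0368), and the adjusted p was 0.143 without the libraries that stood apart.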

How the results depend on the processing

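The tests of genotype, of 6 against 2 months and of whole animals were repeated with RLE factors, without a filter on low counts, with limma-voom and with DESeq2, and these and the other tests between groups without the libraries that stood apart. Single libraries were left out in 5 genotype comparisons and in the 3 comparisons of 6 against 2 months that had a call. The 0 of 60 genotype calls became 1 with limma-voom, 1 with DESeq2, 1 with the replicate block (Gfap in striatum at 2 months, log2 difference -0.20, adjusted p = 0.0364) and 7 in a fit over 60 libraries, but stayed 0 in that fit without the libraries that stood apart and with the first part of the identifier as a block at 2 months; the replicate block changed no other call. In 0 of 12 comparisons did all same-numbered pairs of WT and Q130 libraries correlate above 0.1 (range -0.29 to 0.64), so replicate numbers were not taken to pair the libraries. With exact permutation tests 6 rather than 11 genotype tests had an unadjusted p under 0.05. Leaving out 1 library gave 0 to 1 calls in striatum at 2 months. For 6 against 2 months, 3 calls became 7 with limma-voom, 6 with DESeq2, 5 without the libraries that stood apart and 1 with the repeat columns exchanged; leaving out 1 library gave 0 to 3 calls in WT striatum, 0 to 3 in Q130 striatum and 1 to 2 in WT cerebellum. Without the libraries that stood apart, 4 calls for 12 against 6 months became 9, the genotype by age call became 0, the calls within batch 2 became 2, and 6 of the 15 most alike genes remained. For sex over whole animals, 2 calls became 1 without a filter, and DESeq2 called 1 but gave an adjusted p for only 1 of the 5 genes. At 12 months in cortex, the genotype difference without the library that stood apart turned to -0.0134 for C1qa, -0.0811 for C1qb, -0.0966 for Aif1 and -0.00512 for Gfap; it was -0.0196 for C1qa and -0.0887 for C1qb in the fit over 60 libraries without it, and -0.0406 for C1qb with limma-voom. Apart from the libraries left out, the cause of these changes was not tested. Depth limits Cd68 most.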
